A study of Homo sapiens with 24 samples.

Results

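The genes described here are 59 genes of DNA replication and of the step from G1 into S phase, chosen by symbol as rows of a table of 60366 entries: 8 origin loading factors, the 6 subunits of the MCM2-7 ring, 8 factors of helicase activation, 9 polymerase and primase subunits, 11 genes of the clamp, clamp loader, single-strand binding, flap cleavage and ligation, 3 of fork protection, 6 G1/S regulators, 4 of nucleotide supply, and 4 of chromatin assembly and maintenance methylation. All 59 were found, 58 by symbol and RRM2 by its Ensembl ID. The study measured poly(A) RNA of 3 pancreatic adenocarcinoma cell lines, BXPC3, MIAPACA2 and PSN1, that lack MTAP, the enzyme that clears methylthioadenosine (MTA), and asked how gene expression responds to AM-9747, a tool compound of the class of PRMT5 inhibitors that act together with MTA. PRMT5 is the main enzyme that makes symmetric dimethylarginine on proteins.

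Each line had 4 libraries with DMSO as vehicle and 4 with AM-9747, all taken after 6 days, 24 libraries in 6 groups. The dose was 100 nM for BXPC3 and PSN1 and 150 nM for MIAPACA2, so for MIAPACA2 line and dose cannot be told apart. Every group, controls included, carries the MTAP deletion, and the labels give the genotype as WT. Each line is 1 established line of 1 tumour. Nothing in the labels tells whether the 4 libraries of a group were grown separately; the tests therefore see the spread between libraries, which may be technical.

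Replication starts where the origin recognition complex, CDC6 and CDT1 load the MCM2-7 ring on DNA in G1. CDC7 with DBF4 and cyclin E with CDK2 then turn the ring into the active helicase with CDC45 and the GINS complex, behind which polymerase alpha with primase starts chains and polymerases delta and epsilon extend them on the PCNA clamp. Many of these genes are known targets of E2F transcription factors, which switch them on in late G1 when the retinoblastoma protein is inactivated.

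Promoter windows of 300 bases, 250 before to 50 after the RefSeq start (GRCh38.p14), were held for 50 of the 59 genes (64 windows) and were searched on both strands for 4 E2F forms (TTTCCCGC, TTTCGCGC, TTTGCCGC and TTTGGCGC), the CHR form TTTGAA and CCAAT. An E2F form stood in 27 of the 64 windows (42.2%) against 1164 of all 35116 windows (3.31%), CCAAT in 36 (56.3%) against 12155 (34.6%), and TTTGAA in 2 (3.13%) against 5324 (15.2%). Of the 30 genes with a window that were called lower with AM-9747 in BXPC3 or MIAPACA2 (values follow), 17 had an E2F form (56.7%), as had 9 of the other 20 (45%). CCAAT stood beside 21 of these 30 genes (70%) and 9 of the other 20 (45%). A match is a description of the letters, not a binding site. 6 windows are shown, the matches of either strand in capitals. RRM2 and TK1 had the lowest, ORC6 and DBF4 the highest median response of the genes eligible for printing. For RRM2 and TK1 the window with the more matches is shown. MCM2 and MCM6 were added after the matches were seen, because their E2F forms overlap head to head. E2F forms overlap likewise in a window of TIPIN, which is not printed. E2F1 was also picked at that point and is not printed.

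RRM2: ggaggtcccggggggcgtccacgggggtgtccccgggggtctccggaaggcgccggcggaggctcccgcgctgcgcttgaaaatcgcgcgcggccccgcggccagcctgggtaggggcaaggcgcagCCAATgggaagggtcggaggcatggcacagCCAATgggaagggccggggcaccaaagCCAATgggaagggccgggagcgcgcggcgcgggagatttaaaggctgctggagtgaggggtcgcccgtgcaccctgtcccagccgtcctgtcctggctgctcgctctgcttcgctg
TK1: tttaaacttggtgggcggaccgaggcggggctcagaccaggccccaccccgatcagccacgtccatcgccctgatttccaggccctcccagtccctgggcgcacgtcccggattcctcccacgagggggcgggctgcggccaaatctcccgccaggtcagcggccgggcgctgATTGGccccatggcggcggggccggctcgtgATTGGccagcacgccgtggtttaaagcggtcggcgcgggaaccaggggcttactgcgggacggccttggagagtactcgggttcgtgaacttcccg
ORC6: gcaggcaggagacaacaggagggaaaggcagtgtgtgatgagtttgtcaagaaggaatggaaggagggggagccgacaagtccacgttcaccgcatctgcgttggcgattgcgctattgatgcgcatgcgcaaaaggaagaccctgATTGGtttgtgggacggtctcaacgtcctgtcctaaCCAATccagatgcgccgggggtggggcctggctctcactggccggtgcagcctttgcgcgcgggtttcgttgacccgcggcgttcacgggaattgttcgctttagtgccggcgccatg
DBF4: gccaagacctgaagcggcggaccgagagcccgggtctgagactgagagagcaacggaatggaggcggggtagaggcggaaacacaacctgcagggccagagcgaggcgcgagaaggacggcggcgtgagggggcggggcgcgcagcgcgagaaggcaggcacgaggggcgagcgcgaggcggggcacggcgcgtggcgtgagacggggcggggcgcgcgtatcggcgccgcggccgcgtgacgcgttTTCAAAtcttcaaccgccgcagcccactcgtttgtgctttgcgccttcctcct
MCM2: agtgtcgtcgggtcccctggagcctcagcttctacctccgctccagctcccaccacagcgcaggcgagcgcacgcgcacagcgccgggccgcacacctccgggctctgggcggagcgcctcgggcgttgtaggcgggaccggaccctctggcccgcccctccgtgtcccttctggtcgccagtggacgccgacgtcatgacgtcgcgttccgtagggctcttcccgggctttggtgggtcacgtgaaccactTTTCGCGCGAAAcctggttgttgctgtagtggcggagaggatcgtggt
MCM6: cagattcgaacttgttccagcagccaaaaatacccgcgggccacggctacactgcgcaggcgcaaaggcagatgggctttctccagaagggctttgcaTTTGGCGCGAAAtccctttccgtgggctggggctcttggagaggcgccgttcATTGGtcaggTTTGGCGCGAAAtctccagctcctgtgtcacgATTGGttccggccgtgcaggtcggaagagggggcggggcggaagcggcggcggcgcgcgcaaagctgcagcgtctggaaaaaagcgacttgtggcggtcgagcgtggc

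RRM2 (chr2:10122489-10122788, plus strand) held 3 CCAAT and no E2F form in this window, the downstream of 2 RefSeq starts; the other had 1 CCAAT. TK1 (chr17:78187003-78187302, minus strand, 1 of 2 windows) held 2 CCAAT read on the opposite strand. ORC6 (chr16:46689409-46689708, plus strand) held CCAAT on each strand. DBF4 (chr7:87876243-87876542, plus strand) held 1 CHR form on the opposite strand. In MCM2 (chr3:127598161-127598460, plus strand) the run TTTCGCGCGAAA joins E2F forms of both strands, and in MCM6 (chr2:135876394-135876693, minus strand) the run TTTGGCGCGAAA, which stands there at 2 places, does the same beside 2 CCAAT.

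Totals ran from 22.4 to 45.6 M counts per library. Levels below are CPM (counts relative to the library total) with TMM scaling over all 24 libraries, given as mean ± SD over 4 libraries or by library in the order of the replicate numbers. MTAP stood at 0.132 to 5.50 CPM. KRT8 and KRT18 were detected in every library, while EPCAM, CDH1 and KRT7 were at or below 1.19 CPM in MIAPACA2 and CDH1 at or below 2.66 CPM in PSN1. PTPRC, the pan-leukocyte marker, did not exceed 0.51 CPM anywhere. The libraries of PSN1 stood apart: the mean correlation of a vehicle library with the others of its group was 0.864 to 0.911, against 0.940 in the lowest library of any other group. Its biological coefficient of variation was 55.1%, against 26.6% in BXPC3 and 32.1% in MIAPACA2. In BXPC3, vehicle replicate 4 had the lowest such correlation of its group, 0.967.

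In summed level the 59 genes were lower with AM-9747 in BXPC3 and MIAPACA2 and higher in PSN1. Their CPM added up to 3121, 3010.0, 3091 and 3325 in the BXPC3 vehicle libraries and to 2607, 2593, 2608 and 2654 with AM-9747, a change of the mean by -16.6%. In MIAPACA2 the sums were 2865, 3620, 3368 and 2669 with vehicle and 1898, 1819, 2313 and 2102 with AM-9747, a change of -35.1%. PSN1 went the other way, from 1257, 1011, 898 and 1065 to 2290, 1998, 1963 and 1821, 1.91-fold. Vehicle and treated libraries did not overlap in any of the lines, and the treated sums of MIAPACA2 and PSN1 lay close to each other (2033 ± 222 and 2018 ± 197 CPM).

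**Figure D1:**
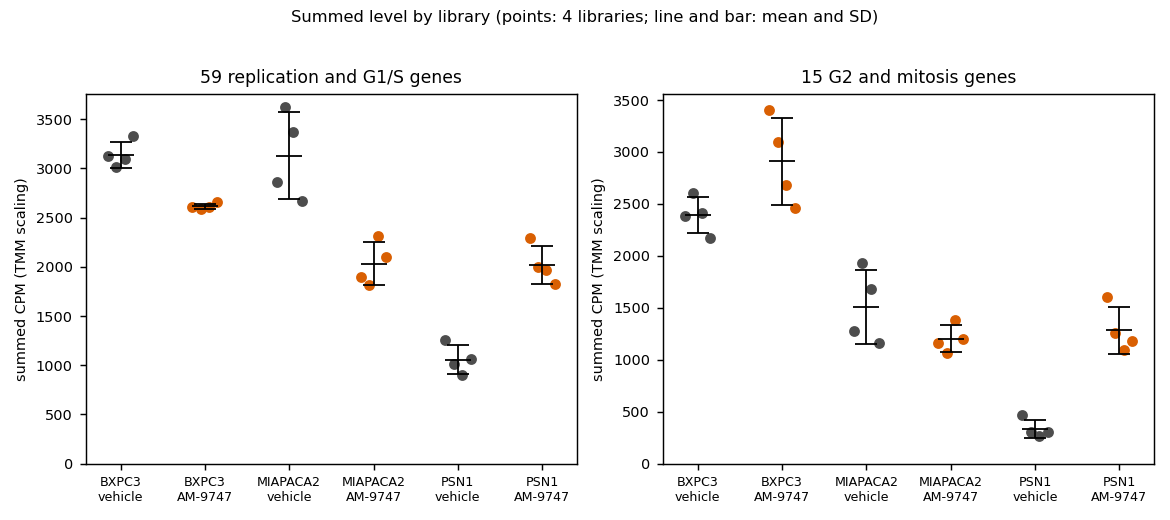
Summed CPM (y axis) of the 59 replication and G1/S genes (left) and of 15 G2 and mitosis genes (right) in each of the 24 libraries, by line and treatment (x axis); points are libraries, bars mean and SD of 4. The 59-gene sums of the treated groups lie between 1819 and 2654 CPM, below vehicle in BXPC3 and MIAPACA2 and above it in PSN1.

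Each line was fitted alone over all genes with edgeR's quasi-likelihood test, and a gene was called at an adjusted p below 0.05 (Benjamini-Hochberg over all genes of the line). In BXPC3, 25 of the 59 were called lower (42.4%) where 16% of the 17638 genes tested were, and 4 were called higher (6.78%) against 13.2%. In MIAPACA2, 25 were lower against 6.84% of 18090 genes and 0 higher against 6.73%. In PSN1, 0 were lower against 6.17% of 18287 genes and 21 higher (35.6%) against 4.52%. Median log2 fold changes of the 59 were -0.39, -0.55 and 0.97, where the medians over all genes were 3e-05, -0.0021 and 0.035. By sign alone, 45 were below 0 in BXPC3, 51 in MIAPACA2 and 3 in PSN1. All 59 passed the filter on low counts in each line. Groups did not overlap for 28 of the 59 genes in BXPC3 (47.5%, against 32.2% of all genes tested), 26 in MIAPACA2 (44.1% against 20.9%) and 31 in PSN1 (52.5% against 21.4%).

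The PSN1 count of 21 fell to between 4 and 8 in 6 of the 8 fits that left out 1 library. It was 5 without vehicle replicate 2 or 4 and 8 without treated replicate 1 or 3. It was 4 without treated replicate 2, 6 without treated replicate 4, 30 without vehicle replicate 1 and 21 without vehicle replicate 3. Higher calls over all genes of PSN1 ranged likewise, from 194 to 2473 (826 with all libraries). Among the 21, the log2 fold change of ORC2 stayed at 0.77 to 0.83, although its call was lost in 5 fits. That of RRM1 ran from 1.70 to 2.88, with the call lost in 4. How far the smaller number of libraries alone lowered the counts was not tested. Of the called genes, 14 of 29 in BXPC3, 16 of 25 in MIAPACA2 and 4 of 21 in PSN1 kept their call under every alternative tried. The 4 of PSN1 were MCM2, GINS1, GINS3 and FEN1. MCM4, CDC45, GINS4, RFC5, LIG1, E2F1, TK1, RRM2 and CHAF1A kept theirs in both BXPC3 and MIAPACA2. In bulk RNA, fewer cells in S phase and less RNA per cell cannot be told apart.

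**Figure D2:**
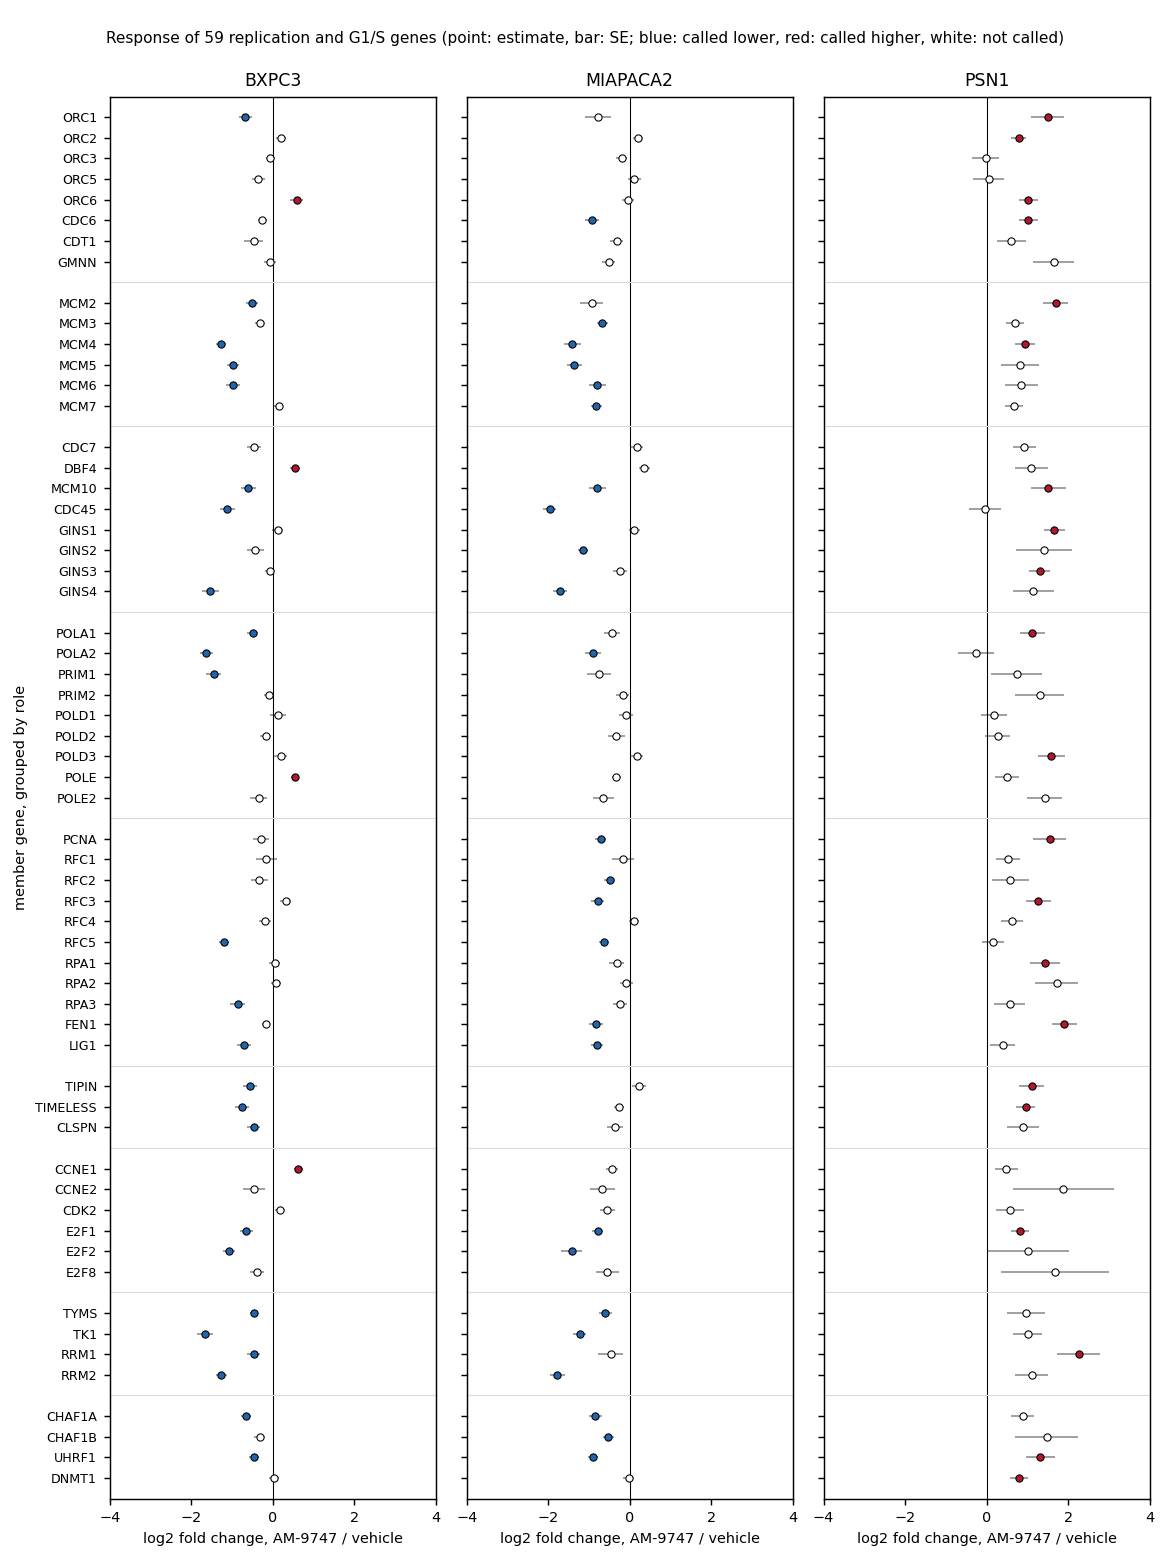
Log2 fold change of AM-9747 over vehicle (x axis) for each of the 59 genes (y axis, grouped by role) in BXPC3, MIAPACA2 and PSN1; points are estimates of the fit of that line, bars SE, blue and red calls lower and higher. The points lie mostly left of 0 in BXPC3 (45 of 59) and MIAPACA2 (51 of 59) and right of it in PSN1 (56 of 59).

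Of the 8 loading factors, 1 fell and 1 rose in BXPC3, 1 fell in MIAPACA2 and 4 rose in PSN1. ORC1, the largest subunit of the origin recognition complex (chr1:52372829-52404459 in GRCh38 with GENCODE 29), gave 20.2, 21.9, 19.9 and 14.7 CPM in the BXPC3 vehicle libraries and 13.5, 13.2, 10.8 and 10.4 CPM with AM-9747 (log2 fold change -0.68, SE 0.16, adjusted p = 0.0101). The BXPC3 groups did not overlap. PSN1 ran the other way, from 3.08, 1.62, 5.45 and 3.4 CPM to 11.1, 7.87, 11.3 and 8.98 CPM (2.82-fold higher, log2 SE 0.41, adjusted p = 0.0411), again without overlap. ORC6 (chr16:46689643-46698394), a smaller subunit, rose in 2 lines. Its BXPC3 values were 27, 27.7, 27.2 and 37.8 CPM with vehicle and 39.9, 38.8, 46.4 and 53.8 CPM with AM-9747 (1.5-fold higher; log2 fold change 0.58, SE 0.16, adjusted p = 0.0224), and the highest vehicle library, replicate 4, lay just under the lowest treated one. In PSN1 ORC6 went from 17.6, 17.4, 11.7 and 19.3 to 38.1, 32.5, 30.5 and 37.4 CPM (log2 fold change 1.02, SE 0.23, adjusted p = 0.0219). CDC6, the ATPase that joins the ring to the origin complex, fell in MIAPACA2 from 34.6, 47.4, 39.7 and 32.9 to 15.7, 17.6, 23.6 and 23 CPM (log2 fold change -0.92, SE 0.17, adjusted p = 0.00657) and rose in PSN1 from 15.9 ± 2.48 to 33.3 ± 4.91 CPM (log2 fold change 1.02, SE 0.23, adjusted p = 0.0204). ORC2 rose in PSN1 (26 ± 1.54 to 46.3 ± 2.03 CPM, adjusted p = 0.0253). ORC3, ORC5, CDT1 and GMNN, the CDT1 inhibitor geminin, passed in no line. The 5 calls of ORC6 in BXPC3 and of ORC1, ORC2, ORC6 and CDC6 in PSN1 were each lost without at least 4 of the 8 libraries of the line in turn.

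MCM2 to MCM7 form the ring that becomes the replicative helicase, and 4 of the 6 fell in BXPC3, 5 in MIAPACA2 and 0 in PSN1, where 2 rose. MCM4 (chr8:47960185-47978160) stood at 137, 133, 131 and 115 CPM in BXPC3 with vehicle and at 61.7, 53.5, 48.9 and 50.1 CPM with AM-9747, 2.41-fold lower (log2 SE 0.12, adjusted p = 8.33e-05). MIAPACA2 showed 83.8, 134, 116 and 73.4 CPM against 32.6, 31.2, 50.5 and 36.2 CPM (2.65-fold lower, log2 SE 0.21, adjusted p = 0.00243). The treated libraries of both lines lay below every vehicle library. PSN1 had the reverse order, 22.1, 11.9, 21.6 and 15.6 against 42.3, 34.7, 34.2 and 28.4 CPM (log2 fold change 0.94, SE 0.25, adjusted p = 0.0392). MCM7 (chr7:100092728-100101940) did not pass in BXPC3 (log2 fold change 0.14, adjusted p = 0.367), where the groups overlapped at 249.7 to 285 and 259 to 313 CPM. It fell in MIAPACA2 from 169.9, 202, 195 and 153 to 94.4, 95.7, 118 and 93 CPM (log2 fold change -0.82, SE 0.13, adjusted p = 0.00329). MCM7 was 1 of 2 genes whose responses in BXPC3 and MIAPACA2 were called different (log2 difference 0.98, SE 0.21, adjusted p = 0.012). That call ended without scaling (adjusted p = 0.0554) and without the filter on low counts (adjusted p = 0.0721). It held under the other alternatives, among them DESeq2 (adjusted p = 0.000191) and voom (0.00043). MCM5 fell in both lines (log2 fold changes -0.97 and -1.36), as did MCM6 (-0.97 and -0.80). MCM2 passed in BXPC3 (-0.50) and MCM3 in MIAPACA2 (-0.67). In PSN1 MCM2 rose from 17.3, 6.95, 13.1 and 13.2 to 57.9, 31.3, 42.5 and 36.3 CPM, 3.23-fold higher (log2 SE 0.30, adjusted p = 0.00824). MCM3, MCM5, MCM6 and MCM7 did not pass in PSN1 (log2 fold changes 0.67 to 0.85). The calls of MCM2 in BXPC3, MCM6 in MIAPACA2 and MCM4 in PSN1 were each lost in at least 5 of 8 fits that left out 1 library.

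Of the 8 factors that activate the helicase, 3 fell and 1 rose in BXPC3, 4 fell in MIAPACA2 and 3 rose in PSN1. GINS4, a subunit of the 4-part GINS complex (chr8:41529206-41545046), had the lowest median response of them. Its BXPC3 levels were 8.51, 8.73, 8.94 and 6.29 CPM with vehicle and 3.62, 2.97, 2.56 and 2.03 CPM with AM-9747 (2.9-fold lower, adjusted p = 0.000674). MIAPACA2 started from 181, 279, 241 and 169.7 CPM and ended at 62.6, 60.5, 78.9 and 60.2 CPM (3.25-fold lower, adjusted p = 0.000421). The treated libraries of MIAPACA2 lay far above every library of the other lines, and the groups did not overlap within either line. PSN1 held 1.42 to 3.47 CPM with vehicle and 3.13 to 6.78 CPM with AM-9747 (adjusted p = 0.156). CDC45, the helicase subunit that GINS holds on the ring, fell in BXPC3 from 21.9, 19.5, 21.7 and 22.4 to 8.53, 7.46, 9.99 and 13.3 CPM (log2 fold change -1.12, SE 0.18, adjusted p = 0.00168). In MIAPACA2 it went from 22.4, 18.8, 19.9 and 18.5 to 4.9, 4.27, 5.97 and 4.91 CPM (3.9-fold lower; log2 fold change -1.97, SE 0.16, adjusted p = 0.000223), the lowest log2 value of any of the 59 in any line. CDC45 in PSN1 gave 4.64 ± 1.5 and 4.64 ± 0.838 CPM (log2 fold change -0.037, SE 0.39). DBF4, the activating partner of CDC7 (chr7:87876216-87909541), rose in BXPC3 from 32.3, 33.9, 32.1 and 26.2 to 54, 42.2, 43.4 and 41.8 CPM (log2 fold change 0.55, SE 0.13, adjusted p = 0.0118); it did not pass in MIAPACA2 (0.36) or PSN1 (1.10). GINS2 fell in MIAPACA2 (28.8 ± 1.35 to 12.7 ± 0.924 CPM, adjusted p = 0.00052). GINS1 and GINS3 passed in PSN1 alone. GINS1 went there from 6.44, 9.36, 8.57 and 10.1 to 28.3, 25, 27 and 32.2 CPM (3.15-fold higher, adjusted p = 0.00434) and GINS3 from 10.3, 8.48, 11.1 and 6.98 to 22.1, 21.7, 21.9 and 27.2 CPM (2.45-fold higher, adjusted p = 0.011). MCM10, which helps to start the helicase, was called in all 3 lines, lower in BXPC3 (-0.60) and MIAPACA2 (-0.80) and higher in PSN1 (1.51), but each of these calls was lost without at least 5 of 8 libraries in turn. CDC7 passed in none.

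Among the 9 polymerase and primase genes, 3 fell and 1 rose in BXPC3, 1 fell in MIAPACA2 and 2 rose in PSN1. POLA2, the second subunit of polymerase alpha (chr11:65261762-65305589), fell in BXPC3 from 24.5, 27.1, 28.6 and 35.1 to 9.72, 7.18, 10.2 and 10.1 CPM (3.09-fold lower, log2 SE 0.17, adjusted p = 0.000146). It also fell in MIAPACA2, from 14.9, 16.7, 16.5 and 14 to 8.41, 5.7, 10.9 and 7.71 CPM (1.87-fold lower, adjusted p = 0.0124). In both, every treated library lay below every vehicle library, while in PSN1 the groups overlapped (3.4 to 10.1 and 3.06 to 8.98 CPM). PRIM1, the catalytic primase subunit, fell in BXPC3 from 16.2, 16.6, 16.9 and 16.5 to 8.4, 5.94, 5.28 and 4.69 CPM (2.72-fold lower, adjusted p = 0.00041), whereas PRIM2, its partner, had a log2 fold change of -0.10 there (SE 0.11). POLE, the catalytic subunit of the leading-strand polymerase (chr12:132623753-132687365), rose in BXPC3 from 78.7, 79.1, 74.1 and 76.2 to 101, 111, 116 and 121 CPM (1.46-fold higher, adjusted p = 0.00392). MIAPACA2 gave 103, 107, 94.9 and 118 CPM with vehicle and 82.1, 86.6, 80.7 and 80.7 CPM with AM-9747, groups that did not overlap but missed the threshold (log2 fold change -0.33, SE 0.11, adjusted p = 0.0736). POLE2, the second subunit of that polymerase, passed in no line. POLA1 was called lower in BXPC3 (-0.50) and higher in PSN1 (1.12), calls lost without 6 and 7 of the 8 libraries in turn. POLD3 rose in PSN1 (8.72 ± 3.09 to 27 ± 5.74 CPM, adjusted p = 0.0159; lost without 1 library). POLD1, POLD2 and PRIM2 passed in none, with log2 fold changes from -0.33 (POLD2 in MIAPACA2) to 1.30 (PRIM2 in PSN1).

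In the class of clamp, clamp loader, RPA, flap nuclease and ligase, 3 of 11 genes fell in BXPC3 and 6 in MIAPACA2, and 4 rose in PSN1. LIG1, which seals Okazaki fragments (chr19:48115445-48170603), fell in both. In BXPC3 it went from 49.5, 44.9, 49.6 and 53.2 to 23.1, 27.5, 31.2 and 38.6 CPM (log2 fold change -0.71, SE 0.16, adjusted p = 0.00985) and in MIAPACA2 from 33.5, 40.5, 35.2 and 35.3 to 15.8, 18.8, 21.4 and 25.4 CPM (log2 fold change -0.80, SE 0.16, adjusted p = 0.0082), with no overlap in either. RFC5 of the clamp loader behaved likewise: 37.9, 44.4, 38.1 and 40.5 CPM became 16.2, 18.2, 16.9 and 18.9 CPM in BXPC3 (2.29-fold lower, adjusted p = 0.000113), and 28.1 ± 2.12 became 17.7 ± 1.12 CPM in MIAPACA2 (adjusted p = 0.0065). RFC3, another subunit of that loader (chr13:33818049-33966558), differed in its response between the lines (joint test adjusted p = 0.00035). BXPC3 gave 34.6, 35.6, 32.6 and 25.2 and then 43.2, 38.7, 41 and 35.8 CPM, which missed the threshold (adjusted p = 0.11). RFC3 fell in MIAPACA2 from 35.1, 38.6, 33.9 and 25.7 to 18.7, 15, 19.7 and 22.6 CPM (log2 fold change -0.78, SE 0.16, adjusted p = 0.0115) and rose in PSN1 from 14.7, 9.6, 5.73 and 12 to 23.4, 23.1, 25.9 and 31.5 CPM (log2 fold change 1.27, SE 0.30, adjusted p = 0.0252). FEN1, the flap nuclease, had the lowest adjusted p of the 59 in the test of different responses (7.68e-06). It fell in MIAPACA2 from 32.4, 46.1, 44.7 and 28.4 to 19.6, 19, 21.7 and 23.6 CPM (-0.82, adjusted p = 0.0104) and rose in PSN1 from 15.8, 7, 9.02 and 14 to 58.4, 45.4, 35.6 and 37.6 CPM (3.75-fold higher, adjusted p = 0.00453). PCNA, the clamp itself, likewise fell in MIAPACA2 (146 ± 16.1 to 87.6 ± 13.6 CPM) and rose in PSN1, where the 4 vehicle libraries were spread over 28.9 to 129 CPM and the treated over 154 to 237 CPM. RPA3 fell in BXPC3 (-0.86), RFC2 in MIAPACA2 (-0.49), and RPA1 rose in PSN1 (1.42). RFC1, RFC4 and RPA2 passed in no line. PCNA, RFC3 and RPA1 in PSN1 and RFC2 in MIAPACA2 each lost their call in at least 5 of 8 fits that left out 1 library.

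The 3 fork protection genes, which hold polymerase and helicase together and pass on checkpoint signals, all fell in BXPC3 (3 of 3), and none passed in MIAPACA2. TIMELESS went from 85.9 ± 7.28 to 51 ± 11.4 CPM in BXPC3 (log2 fold change -0.75, SE 0.17, adjusted p = 0.00883) and from 26.6 ± 5.71 to 53.2 ± 7.66 CPM in PSN1 (log2 fold change 0.96, SE 0.23, adjusted p = 0.0274). Its partner TIPIN (chr15:66336206-66386746) gave 6.14, 7.14, 8.1 and 7.94 CPM with vehicle and 4.91, 4.49, 4.18 and 6.29 CPM with AM-9747 in BXPC3 (log2 fold change -0.56, SE 0.18, adjusted p = 0.0426), where 1 treated library lay among the vehicle ones. In PSN1 TIPIN rose from 6.21, 3.24, 5.9 and 4.88 to 12.6, 11.3, 10.5 and 10.1 CPM without overlap (log2 fold change 1.10, SE 0.31, adjusted p = 0.0475). CLSPN, the checkpoint mediator claspin (chr1:35720218-35769967), stood at 22.5, 20.6, 20.1 and 14.8 and 16.5, 14.1, 13.2 and 12.5 CPM in BXPC3 (log2 fold change -0.47, SE 0.16, adjusted p = 0.0459), with overlap. Only TIMELESS in BXPC3 kept its call in all 8 fits that left out 1 library.

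Of the G1/S regulators, E2F1 was called in all 3 lines. It fell from 29.2, 25.7, 29.6 and 36.2 to 15.7, 17.9, 21.6 and 21.4 CPM in BXPC3 (log2 fold change -0.65, SE 0.16, adjusted p = 0.0117). MIAPACA2 gave 31.4, 26.5, 34 and 35.2 and 17.2, 15.3, 19.7 and 20.1 CPM (log2 fold change -0.79, SE 0.15, adjusted p = 0.00613), and PSN1 rose from 16.2, 17.3, 18.6 and 14.2 to 36.1, 28.7, 28.9 and 26.8 CPM (log2 fold change 0.81, SE 0.22, adjusted p = 0.037); the last call was lost without 6 of the 8 libraries in turn (adjusted p up to 0.111). Groups did not overlap in any of the lines. E2F2, a second activating E2F (chr1:23506430-23531220), fell in BXPC3 from 12.6, 10.5, 13.1 and 12.4 to 6, 6.34, 5.78 and 4.72 CPM (2.12-fold lower, adjusted p = 0.000681) and in MIAPACA2 from 11.6, 9.18, 13.2 and 7.9 to 3.26, 2.47, 4.06 and 5.53 CPM (2.69-fold lower, adjusted p = 0.00644). In PSN1 E2F2 was near the floor, with 0.508, 0, 2.38 and 1.54 CPM in vehicle libraries, where a library with 0 counts could still hold up to 3. CCNE1, cyclin E1 (chr19:29811898-29824308), moved against most of the set in BXPC3: 11.1, 13.6, 12 and 12.4 CPM became 18.1, 19.1, 18.8 and 20.02 CPM (1.55-fold higher, adjusted p = 0.00352), with no overlap. MIAPACA2 had 19.9, 21.5, 22 and 16.9 CPM with vehicle and 15.3, 13.2, 17.3 and 13 CPM with AM-9747 (log2 fold change -0.42, adjusted p = 0.0821). CCNE1 was the other gene whose responses in BXPC3 and MIAPACA2 were called different (log2 difference 1.08, SE 0.27, adjusted p = 0.0366). The call ended with RLE scaling (adjusted p = 0.0523), without scaling (0.0782), without the filter (0.162) and with a replicate block (0.0623). It also ended in 15 of 24 fits that left out 1 library (up to 0.09). It held by voom (adjusted p = 0.000915) and DESeq2 (0.00617). With the mitochondrial share as covariate (0.0139) and a mean of at least 5 CPM (0.038) it held too. CDK2, its kinase, CCNE2 and the repressor E2F8 passed in no line.

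Of the 9 classes, nucleotide supply had the lowest ratio of treated to vehicle summed level in BXPC3 (-42.0%) and MIAPACA2 (-51.2%) and the highest in PSN1 (2.96-fold), with no overlap of the groups in any of the lines. RRM2, the small subunit of ribonucleotide reductase (chr2:10120698-10131419), whose promoter is printed above, stood at 34.3, 36.3, 37.8 and 38.9 CPM in BXPC3 with vehicle and at 18, 13.9, 16.4 and 13.2 CPM with AM-9747 (2.4-fold lower, log2 SE 0.13, adjusted p = 0.000157). In MIAPACA2 127, 162, 161 and 108 CPM became 37.7, 31.9, 51.4 and 38.4 CPM (3.43-fold lower, log2 SE 0.18, adjusted p = 0.000406). No treated library reached a vehicle library in either line. PSN1 gave 15.8, 8.34, 6.7 and 9.86 and 39.97, 18.9, 10.4 and 20.9 CPM, overlapping groups that did not pass (adjusted p = 0.104). TK1, the S-phase thymidine kinase, fell from 63.2, 51.6, 62.1 and 89.96 to 16.3, 19.5, 24.9 and 22.9 CPM in BXPC3 (3.18-fold lower, adjusted p = 0.000346) and from 60.05, 55.8, 60.03 and 51.4 to 17.6, 21.5, 27.9 and 28.1 CPM in MIAPACA2 (2.35-fold lower, adjusted p = 0.00135). TYMS, thymidylate synthase (chr18:657604-673578), fell in BXPC3 from 69, 65.8, 64 and 70.4 to 48.8, 50.2, 48.3 and 49 CPM (log2 fold change -0.45, SE 0.10, adjusted p = 0.00674), with little spread in either group. TYMS in MIAPACA2 gave 93.4, 111, 104 and 70.2 and 55.5, 50.6, 72.2 and 66.7 CPM (log2 fold change -0.60, SE 0.17, adjusted p = 0.0366), overlapping groups and a call lost without 6 of the 8 libraries in turn (adjusted p up to 0.118). RRM1, the large reductase subunit, fell in BXPC3 (-0.47), a call lost without 6 of the 8 libraries in turn (adjusted p up to 0.131). It rose in PSN1, where vehicle libraries gave 19.9, 6.54, 5.05 and 6.35 CPM and treated ones 92.5, 43.1, 26.4 and 23.3 CPM (4.78-fold higher, log2 SE 0.53, adjusted p = 0.024). This was the highest log2 value of the 59 in any line, and its call was lost without 4 of the 8 libraries in turn (adjusted p up to 0.0822).

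In the chromatin class, CHAF1A, the large subunit of the histone chaperone that follows PCNA (chr19:4402662-4445018), fell in BXPC3 from 46.1, 38.5, 42.7 and 50.5 to 29, 29.9, 26.9 and 26.7 CPM (log2 fold change -0.66, SE 0.12, adjusted p = 0.00274). It fell in MIAPACA2 from 26.7, 31.7, 37.2 and 30.4 to 15.6, 14.7, 21.6 and 16.8 CPM (log2 fold change -0.85, SE 0.16, adjusted p = 0.00668). Neither pair of groups overlapped. UHRF1, which recruits the maintenance methyltransferase to new DNA, was called in all 3 lines, at 41.3 ± 4.93 and 29.9 ± 2.86 CPM in BXPC3, 81.6 ± 7.08 and 43 ± 4.16 CPM in MIAPACA2, and 24.6 ± 10.7 and 63.4 ± 5.49 CPM in PSN1 (adjusted p = 0.023, 0.0014 and 0.0369). The BXPC3 call was lost without 4 of the 8 libraries in turn (adjusted p up to 0.0618) and the PSN1 call lost without 6 of the 8 libraries in turn (adjusted p up to 0.0926). DNMT1, that methyltransferase (chr19:10133345-10231286), stood at 121 to 137 CPM with vehicle and 109.9 to 146 CPM with AM-9747 in BXPC3 (log2 fold change 0.026, SE 0.12) and gave -0.028 (SE 0.14) in MIAPACA2. It passed in PSN1, from 108, 101, 69.3 and 106 to 187, 166, 194 and 137 CPM (log2 fold change 0.79, SE 0.22, adjusted p = 0.0423), a call lost without 7 of the 8 libraries in turn (adjusted p up to 0.118). CHAF1B fell in MIAPACA2 (45.3 ± 4.71 to 30.8 ± 3.8 CPM, adjusted p = 0.0255), a call lost without 4 of the 8 libraries in turn (adjusted p up to 0.084).

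**Figure D3:**
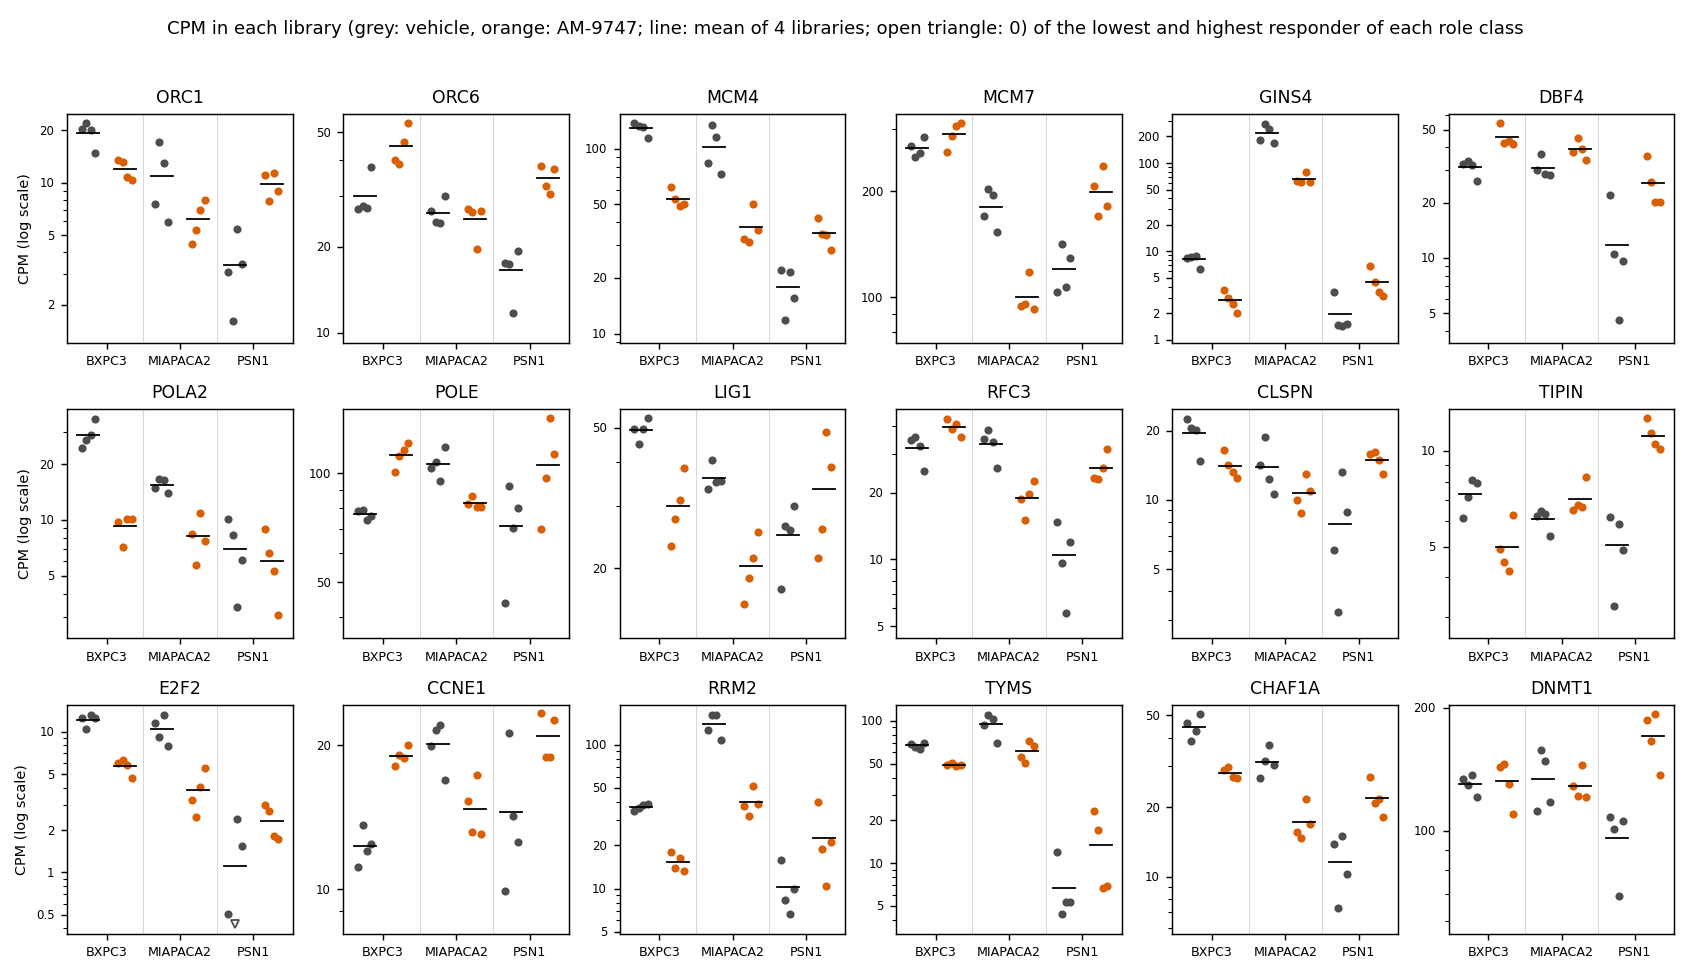
CPM on a log axis (y) in each library of BXPC3, MIAPACA2 and PSN1 (x; grey vehicle, orange AM-9747, line mean of 4) for the gene with the lowest and the gene with the highest median response of each of the 9 role classes; an open triangle marks 0 counts. RRM2, MCM4 and GINS4 separate the groups of BXPC3 and MIAPACA2 downward, while CCNE1 and POLE separate those of BXPC3 upward.

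Across the lines, 0 of the 59 genes were called the same way in all 3, against 1.88% of the 14476 genes tested in every line. 16 were called lower in both BXPC3 and MIAPACA2 (27.1%, against 4.27% of those genes), and 34 in at least 1 of them (57.6% against 20.4%). 14 genes were called lower in BXPC3 or MIAPACA2 and higher in PSN1: ORC1, CDC6, MCM2, MCM4, MCM10, POLA1, PCNA, RFC3, FEN1, TIPIN, TIMELESS, E2F1, RRM1 and UHRF1, of which MCM4, MCM10, E2F1 and UHRF1 passed in all 3 lines. These were 23.7% of the 59 and 0.401% of the genes tested in every line (58 genes). Their calls in PSN1 were lost for 12 of the 14, all but MCM2 and FEN1, without at least 1 of the 8 libraries in turn. 20 were only called lower (33.9%, against 22.2%), 10 only higher (16.9% against 18.3%), and 15 passed in no line (25.4% against 58.3%). By sign, 38 were below 0 in BXPC3 and MIAPACA2 and above 0 in PSN1 (64.4% against 15.7%).

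The difference itself was tested in a joint fit of all 24 libraries, with each gene's dispersion shared by the 3 lines. The spread itself differed: the biological coefficient of variation was 55.1% in PSN1, 26.6% in BXPC3 and 32.1% in MIAPACA2. A shared dispersion can give too many calls in PSN1, so calls against PSN1 are less certain here. It can also give too few in the other lines: the joint fit lost 14 of 29 main calls in BXPC3 and 9 of 25 in MIAPACA2. Differences between these lines can therefore be missed, and voom called more of them, as given below. By the joint F test 43 of 59 responses differed between the lines (12.1% of all 22883 genes), 39 of them also by voom with weights for each group. The response was lower in BXPC3 than in PSN1 for 40 genes (4.75% of all genes) and higher for 0 (3.58%). It was lower in MIAPACA2 than in PSN1 for 42 (5.64%) and higher for 0 (4.81%). Between BXPC3 and MIAPACA2 it was higher in BXPC3 for 2 (0.581%), MCM7 and CCNE1, and lower for 0 (1.49%). Median log2 differences over the 59 were -1.45, -1.62 and 0.19 in this order, with -0.11, -0.074 and 0.015 over all genes. The pairs share groups, and with weights by group the 40 and 42 became 28 and 39 of the same genes. The lowest log2 difference between MIAPACA2 and PSN1 was that of RRM2 (-2.95, SE 0.42), and between BXPC3 and PSN1 that of RRM1 (-2.75, SE 0.59). POLE and CCNE1 had log2 differences of -0.013 (SE 0.27) and 0.095 (SE 0.27) between BXPC3 and PSN1.

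PSN1 started from lower levels in the same joint fit, to which the limit of the shared dispersion also applies. Its vehicle libraries also held 17.4 to 43.8% counts from mitochondrially encoded genes and as few as 16646 genes detected. Over counts outside the mitochondrial genome, the 59 made up 0.324 ± 0.00483% of BXPC3 vehicle libraries. They made up 0.388 ± 0.0375% in MIAPACA2 and 0.131 ± 0.0125% in PSN1. With vehicle, 53 genes were higher in BXPC3 than in PSN1 and 54 higher in MIAPACA2 than in PSN1, with 0 lower in either comparison, where 31.7% and 27.3% of all genes were higher and 30.8% and 27.2% lower. The median of the 59 was 3.60-fold higher in BXPC3 and 3.16-fold higher in MIAPACA2 than in PSN1, and 1.14-fold higher in BXPC3 than in MIAPACA2. Between BXPC3 and MIAPACA2, 12 were higher (26.3%) and 10 lower (24%) in BXPC3. The F test over the 3 lines called 56 (76.4% of all genes), all but RFC1, RFC4 and TIPIN. E2F8 had the widest gap of BXPC3 over PSN1 (19.3 ± 3.39 against 0.327 ± 0.384 CPM). It was at the floor in PSN1, with 0 counts in vehicle replicates 3 and 4. CCNE1 and ORC2 stood near each other in these lines, at 12.3 ± 1.03 and 14.5 ± 4.82 CPM and at 26 ± 2.19 and 26 ± 1.54 CPM. Since the vehicle groups enter both the level and the response, a low vehicle level and a high fold change in PSN1 are not independent.

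GINS4 differed most between the vehicle groups, at 218 ± 51.3 CPM in MIAPACA2, 8.12 ± 1.23 CPM in BXPC3 and 1.97 ± 1 CPM in PSN1 (log2 difference of MIAPACA2 over PSN1 6.76, SE 0.34, and of BXPC3 over MIAPACA2 -4.74, SE 0.31). GINS2, of the same complex, had the order of GINS4. Its vehicle libraries held 27.1 to 30.3 CPM in MIAPACA2, 13.5 to 22.3 in BXPC3 and 0.324 to 2.82 in PSN1. GINS1, another subunit, had a different order, at 34 ± 3.54, 20.2 ± 2.9 and 8.63 ± 1.59 CPM in BXPC3, MIAPACA2 and PSN1. GINS3 libraries held 17.2 to 19.2, 12.6 to 17.3 and 6.98 to 11.1 CPM in these lines. After GINS4, RRM2 came next among genes higher in MIAPACA2 than in BXPC3 (139 ± 26.3 CPM against 36.8 ± 1.96 in BXPC3). Per kilobase of exon, so that genes can be compared, vehicle levels in BXPC3 ran from 1.02 CPM for CCNE2 to 190.1 CPM for PCNA, with MCM7 next at 60.5 CPM. In PSN1 they ran from 0.0789 CPM for E2F8 to 44.5 CPM for PCNA, again followed by MCM7 at 27.5 CPM.

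**Figure D4:**
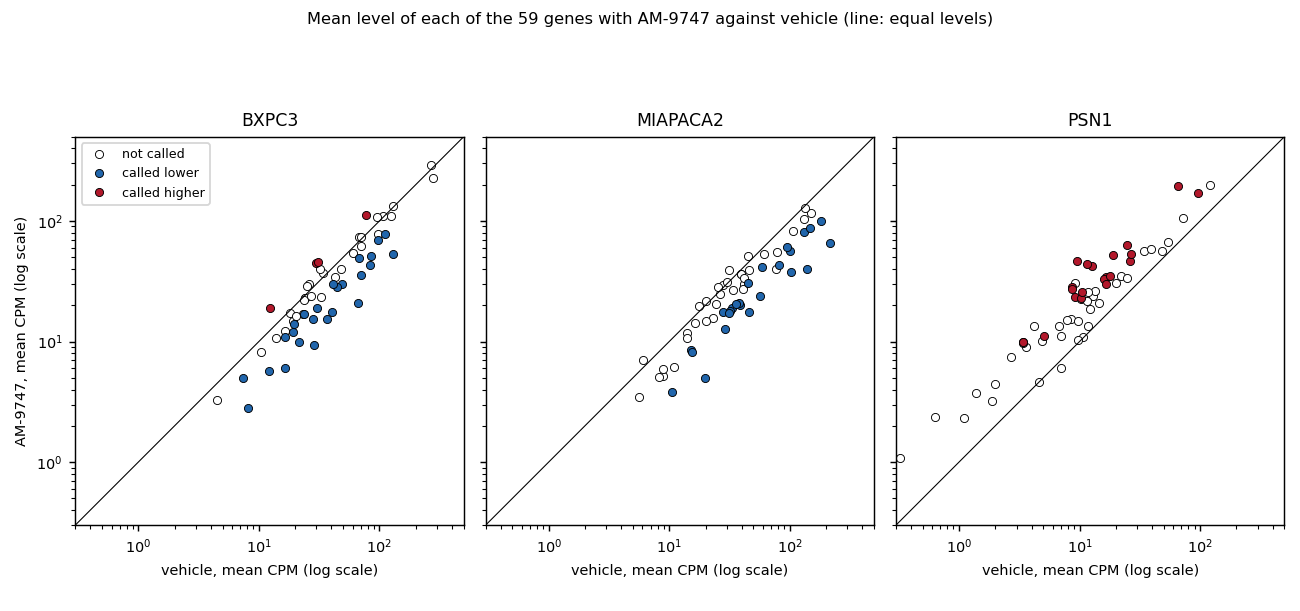
Mean CPM with AM-9747 (y, log scale) against mean CPM with vehicle (x, log scale) for each of the 59 genes in BXPC3, MIAPACA2 and PSN1; the line marks equal levels, blue and red calls lower and higher. In PSN1 56 of 59 log2 fold changes lie above 0, against 14 in BXPC3 and 8 in MIAPACA2.

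Of 37 replication genes outside the 59, 36 were tested. In BXPC3 8 were lower (22.2%, against 16% of all genes tested) and 2 higher (5.56% against 13.2%). In MIAPACA2 4 were lower (11.1% against 6.84%) and 1 higher (2.78% against 6.73%). In PSN1 1 was lower (2.78% against 6.17%) and 5 higher (13.9% against 4.52%). Median log2 fold changes were -0.080, -0.19 and 0.44. POLD4, a small polymerase delta subunit, fell in BXPC3 (-1.37) and PSN1 (-1.32). POLE4 rose in MIAPACA2 (0.74) and PSN1 (1.64), and DSCC1, of an alternative clamp loader, fell in BXPC3 (-0.94) and rose in PSN1 (1.53). TOPBP1, which helps to load CDC45, rose in BXPC3 (0.59) and PSN1 (1.17). Of 30 further G1/S control genes, 29 were tested in BXPC3. There 4 were lower (13.8% against 16%) and 3 higher (10.3% against 13.2%), both below the share of all genes. In MIAPACA2 5 of 29 were lower (17.2% against 6.84%) and 0 higher (against 6.73%). In PSN1 2 of 28 were lower (7.14% against 6.17%) and 5 higher (17.9% against 4.52%). CDK4, the kinase of the D cyclins, fell in BXPC3 (144 ± 13.5 to 73.9 ± 6.9 CPM, adjusted p = 0.000433) and MIAPACA2 (115 ± 14.3 to 54.4 ± 13.6 CPM, adjusted p = 0.00356), and its PSN1 value was -0.76 (adjusted p = 0.165). MYBL2, an E2F target that acts on later cell-cycle genes, was lower in BXPC3 and MIAPACA2 and higher in PSN1, with log2 fold changes of -0.54, -0.79 and 1.53. CDC25A, a phosphatase that activates CDK2, fell in MIAPACA2 (-0.67) and rose in PSN1 (1.43). CDKN2C, an inhibitor of CDK4, fell in BXPC3 (-0.89) and MIAPACA2 (-0.43).

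Of 15 genes of G2 and mitosis, 6 were higher in BXPC3 (40%, against 13.2% of all genes tested) and 0 lower (against 16%). MIAPACA2 had 1 lower (6.67% against 6.84%) and 0 higher (against 6.73%). In PSN1 13 were higher (86.7% against 4.52%) and 0 lower (against 6.17%). The summed level of the 15 was 2392 ± 174 CPM with vehicle and 2909 ± 421 CPM with AM-9747 in BXPC3. In MIAPACA2 it was 1511 ± 357 and 1203 ± 133 CPM, and the groups overlapped in both lines. PSN1 went from 334 ± 89.2 to 1283 ± 224 CPM without overlap, 3.84-fold. AURKA, a mitotic kinase, rose in BXPC3 (131 ± 5.23 to 237 ± 11.4 CPM, adjusted p = 0.00024) and PSN1 (44.3 ± 13.6 to 215 ± 27.6 CPM, adjusted p = 0.00109). TOP2A, which also unlinks replicated DNA, fell in MIAPACA2 (-0.95) and rose in PSN1 (1.38). CENPF rose in BXPC3 (0.53) and PSN1 (2.05), as did BUB1 (0.51 and 2.30).

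Several measures moved with treatment in PSN1 beside the 59 genes. Counts from mitochondrially encoded genes were 17.4, 43.8, 37.6 and 33.5% of the vehicle libraries and 7.98, 14.1, 26.8 and 31.1% of the treated ones, which overlap. Genes detected ran from 16646 to 24738 and from 22386 to 27120, and TMM factors from 0.74 to 0.922 and from 0.895 to 1.13. DDIT3, a stress response gene picked after its values were seen, was at 57.5 to 163 CPM with vehicle and 35.7 ± 4.7 CPM (mean ± SD) with AM-9747. The vehicle library with the smallest mitochondrial share, 17.4%, lay within the treated range of that share. Its summed level of 1257 CPM was below the lowest treated sum, 1821 CPM. Within groups, the sum fell as the share rose in MIAPACA2 and in treated PSN1 libraries. Shares of 6.58, 10.3, 17.0 and 20.5% went with 3620, 3368, 2865 and 2669 CPM in MIAPACA2 vehicle libraries. With AM-9747, 7.23, 14.7, 15.7 and 16.6% went with 2313, 2102, 1898 and 1819 CPM there. The order was not strict in PSN1 vehicle libraries. In both BXPC3 groups the library with the largest share had the highest sum. With the share as a covariate, 14 of the 59 were called higher in PSN1, 11 of them among the 21. Taken over counts outside the mitochondrial genome, the 59 made up 0.131 ± 0.0125% of the PSN1 vehicle libraries. In the treated ones they made up 0.257 ± 0.018%, 1.96-fold. This share changed by -26.7% in MIAPACA2, where the TMM-scaled sum changed by -35.1%. TMM factors of MIAPACA2 ran from 1.03 to 1.10 with vehicle and from 1.16 to 1.27 with AM-9747, without overlap. In BXPC3 the share changed by -16.4% and the scaled sum by -16.6%. In MIAPACA2 the fibroblast marker sum, nearly all COL1A2, was 1662 to 2825 CPM with vehicle and 954 to 1610 CPM with AM-9747, while DCN did not exceed 0.0517 CPM and FAP 0.046 CPM. In BXPC3 the fibroblast sum was 17.4 to 22.3 CPM with vehicle and 26.3 to 33.8 CPM with AM-9747, and of the 6 markers the 2 that were tested there both rose. The immune marker sum of BXPC3 was 35.5 to 40.0 CPM with vehicle and 8.37 to 25.1 CPM with AM-9747, and the endothelial sum 15.6 to 20.5 and 29.5 to 34.3 CPM. In PSN1 the fibroblast sum was 23.0 to 34.6 CPM with vehicle and 53.4 to 71.7 CPM with AM-9747. The part of these measures in the changes of the 59 was not tested further.

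**Figure D5:**
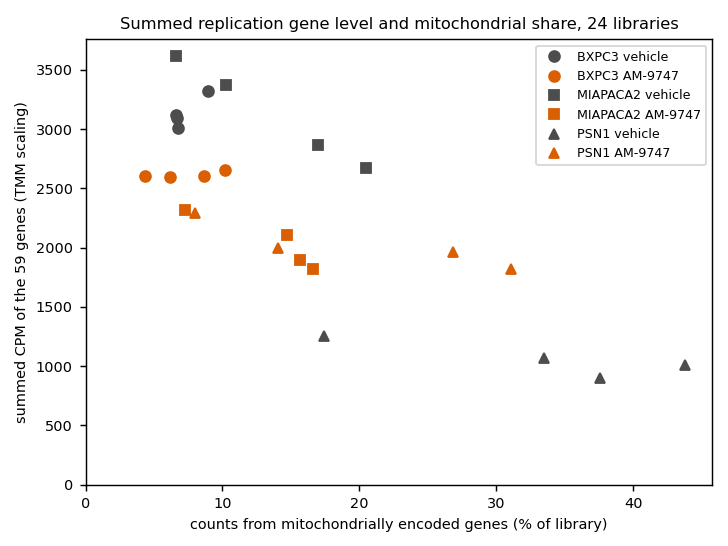
Summed CPM of the 59 genes (y) against the share of counts from mitochondrially encoded genes (x, %) in the 24 libraries, by line (shape) and treatment (colour). The PSN1 vehicle libraries lie at 17.4 to 43.8% and 898 to 1257 CPM, below the lowest treated PSN1 library, 1821 CPM. In BXPC3 both groups lie between 4.34 and 10.2%. In both groups of MIAPACA2 and in treated PSN1 libraries the sum falls as the share rises.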

How the data were processed

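Poly(A) RNA libraries of 24 samples were sequenced; the authors deposited 1 table of unnormalised counts for each gene. The submitters' processing notes list fastp 0.19.8, HISAT2 2.2.0, R 4.0.2, DESeq2 1.34.0 and the build GRCh38. Which program counted the reads, and on which annotation release, is not given in the sources used here. RRM2 stands on a pair of entries of 1 Ensembl ID; the other entry, never above 41 counts, was left out. Gene coordinates are from GENCODE 29.

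Each line was fitted alone with edgeR 4.0.16 in R 4.3.3 (quasi-likelihood test, TMM, filterByExpr, 8 libraries), and all 24 libraries jointly for differences between responses and between vehicle levels; p-values were adjusted by Benjamini-Hochberg over all genes tested. The scripts were tested on simulated data. The genes and lists were chosen with earlier results of these data known. Values by library are given for the gene with the lowest and the gene with the highest median response in each of the 9 role classes, together with others chosen after their values were seen; group values are given for genes called in opposite directions; and of other lists, up to 4 genes called in the most lines were named. Promoters were printed for up to 4 genes by median response, none from chromosome 8, and MCM2 and MCM6 were added after the motif matches were seen. Alternatives were RLE or no scaling, no filter or a mean of at least 5 CPM, DESeq2 1.42.0, voom (limma 3.58.1) with weights by group, the mitochondrial share as covariate, a joint fit, a replicate block, the 12 vehicle libraries alone, and leaving out each library.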

Additional observations from a re-analysis of the deposited data

Results flagged for a closer look

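In 10 of 120 sets of 4 libraries examined, 1 library lay so far from the other 3 that its gap, as a share of the whole range, exceeded Dixon's critical value for 4 samples; chance alone gives about 1 in 20. These were ORC6 at 37.8 CPM in BXPC3 vehicle replicate 4, ORC6 at 19.5 CPM in MIAPACA2 treated replicate 3, MCM7 at 118 CPM in MIAPACA2 treated replicate 3, GINS4 at 6.29 CPM in BXPC3 vehicle replicate 4, GINS4 at 78.9 CPM in MIAPACA2 treated replicate 3. The others were GINS4 at 3.47 CPM in PSN1 vehicle replicate 1, DBF4 at 54 CPM in BXPC3 treated replicate 1, POLA2 at 7.18 CPM in BXPC3 treated replicate 2, TIPIN at 8.24 CPM in MIAPACA2 treated replicate 4, TYMS at 11.9 CPM in PSN1 vehicle replicate 1.

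The response to AM-9747 differed between the 3 lines for 43 of the 59 genes by edgeR's joint quasi-likelihood F test. The dispersion of each gene was shared by the lines, and Benjamini-Hochberg adjustment ran over all genes. Among the loading factors, the adjusted p was 0.00197 for ORC1, 0.0274 for ORC2, 0.0122 for ORC6, 2.48e-05 for CDC6 and 0.00791 for GMNN. In the class MCM2-7 ring, the adjusted p was 0.000205 for MCM2, 0.000753 for MCM3, 1.7e-05 for MCM4, 0.00563 for MCM5, 0.0111 for MCM6 and 0.00012 for MCM7. In the class helicase activation, the adjusted p was 0.00612 for CDC7, 0.000979 for MCM10, 0.00131 for CDC45, 5.32e-05 for GINS1, 0.00811 for GINS2, 0.000288 for GINS3 and 4.93e-05 for GINS4. For polymerases and primase, the adjusted p was 0.00273 for POLA1, 0.0296 for PRIM1, 0.00539 for POLD3, 0.0341 for POLE and 0.00626 for POLE2. In the class clamp, clamp loader, RPA, flap and ligase, the adjusted p was 0.00232 for PCNA, 0.00035 for RFC3, 0.00118 for RFC5, 0.00807 for RPA1, 0.024 for RPA2, 0.0435 for RPA3, 7.68e-06 for FEN1 and 0.016 for LIG1. For fork protection, the adjusted p was 0.00403 for TIPIN, 0.000213 for TIMELESS and 0.0308 for CLSPN. For the G1/S regulators, the adjusted p was 0.0157 for CCNE1 and 7.41e-05 for E2F1. In the class nucleotide supply, the adjusted p was 0.0294 for TYMS, 1.75e-05 for TK1, 0.00339 for RRM1 and 0.000117 for RRM2. In the class chromatin assembly and maintenance methylation, the adjusted p was 0.000271 for CHAF1A, 0.000207 for UHRF1 and 0.0188 for DNMT1.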

How the results depend on the processing

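Under every alternative run, calls of the 59 genes in BXPC3 and MIAPACA2 were mostly lower, and those in PSN1 mostly higher. Calls lower in BXPC3 were 13 and higher 2 in the joint fit. In MIAPACA2, 40 were lower with the mitochondrial share as covariate, and 1 was higher under that covariate and 1 with a mean of at least 5 CPM. In PSN1, 41 were higher in the joint fit. Of the main calls that fit lost 14 of 29 in BXPC3, 9 of 25 in MIAPACA2 and 0 of 21 in PSN1. It shares each gene's dispersion over the lines, which differed in spread, while the main fits took each line alone. Responses higher in BXPC3 than in MIAPACA2 numbered 0 without scaling, 0 without a filter, 7 by voom and 4 with the covariate; 1 was lower by DESeq2. For vehicle levels, BXPC3 was lower than MIAPACA2 for 16 genes by voom and higher for 4 without scaling and 23 by voom, and lower than PSN1 for 2 with a mean of at least 5 CPM. The cause was not tested.

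Leaving out 1 library at a time gave 18 to 27 lower and 3 to 4 higher calls in BXPC3, 20 to 30 lower in MIAPACA2 and 4 to 30 higher in PSN1. Joint calls of different responses were 38 to 49, with 1 to 4 higher in BXPC3 than in MIAPACA2, 27 to 47 lower in BXPC3 than in PSN1 and 33 to 49 lower in MIAPACA2 than in PSN1. Vehicle levels differed for 55 to 57, with BXPC3 over MIAPACA2 8 to 19 (19 without PSN1 vehicle replicate 1 or 3).

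Same-numbered libraries did not pair throughout. The correlation of their deviations ran from -0.19 to 0.42 and was above 0.1 in 5 of 12 pairs. The best partner had the same number in 4 of 12, for replicates 1 and 4 of BXPC3, 3 of MIAPACA2 and 1 of PSN1. Whether part of the libraries are paired was not settled. With a replicate block, BXPC3 had 31 lower and 5 higher, MIAPACA2 23 lower, PSN1 31 higher, and 50 responses differed; the difference of CCNE1 between BXPC3 and MIAPACA2 was not called (adjusted p = 0.0623).

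Over all genes, lower and higher calls in MIAPACA2 went from 1238 and 1218 to 638 and 1915 without scaling, which moved the median log2 fold change by 0.15, and in PSN1 from 1128 and 826 to 542 and 1212, with a shift of 0.33. With the covariate BXPC3 had 4277 and 3748, MIAPACA2 3400 and 2982, PSN1 727 and 659; in the joint fit 1394 and 1020, 532 and 619, and 2417 and 3344. DESeq2 gave 1903 higher in MIAPACA2, 1984 and 1697 in PSN1 and 4890 different responses; the block gave 1806 higher in PSN1 and 4328 different responses. Vehicle levels differed for 10554 genes with a mean of at least 5 CPM. Levels near the floor limit what these libraries can show, as for E2F2 (0 to 2.38 CPM) and E2F8 (0 to 0.742 CPM) in PSN1 vehicle libraries.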

Other observations

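The level of GINS4 in MIAPACA2 was set beside its neighbours after it had been seen. Of 7 protein-coding genes within 500000 bases on either side, GINS4 included, vehicle levels in BXPC3, MIAPACA2 and PSN1 were 44.0, 111 and 19.2 CPM for GOLGA7, 50.0 and 104 CPM (BXPC3 and MIAPACA2) and 85.5 to 116 CPM (PSN1 libraries) for GPAT4, 75.8, 172 and 9.17 CPM for ANK1, and 72.8, 49.6 and 22.6 CPM for KAT6A. SFRP1, like GINS4, was highest in MIAPACA2, at 5.61 to 8.63 CPM in its 4 vehicle libraries, against 0 counts in every BXPC3 vehicle library and at most 0.0564 CPM in PSN1, so no fold is given against BXPC3. NKX6-3 did not exceed 0.27 CPM in any vehicle library. The log2 difference of BXPC3 over MIAPACA2 for the genes with counts in every vehicle library was -1.33 for GOLGA7, -1.06 for GPAT4, -1.19 for ANK1 and 0.55 for KAT6A, and -4.74 for GINS4. The copy number of this region was not analysed here.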
